A study of Mus musculus with 6 samples.

Results

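Hspa5, Herpud1 and Sesn2 are 3 genes of the cellular stress response, and they were followed on 6 exon arrays of layer 4 star pyramid neurons of the mouse visual cortex. Each gene was taken as the transcript cluster that carries its symbol alone in the platform annotation (cluster 6876342 for Hspa5, 6978314 for Herpud1 and 6917496 for Sesn2). Each had 1 such cluster, so the 3 members are 3 of 14859 genes with a single symbol, among 23331 transcript clusters. They were picked from an earlier look at the same contrast of deprived with non-deprived hemispheres, as the genes with the smallest unadjusted p in the shorter stress list used there. Over the wider lists used here, 4 other stress genes (Sil1, Gars, Rragc and Keap1) have a larger ratio of difference to standard error than any of the 3. Their differences between the groups are therefore given as a description, with a standard error and without a test.

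All mice underwent monocular deprivation by injection of tetrodotoxin, a sodium channel blocker, first at postnatal day 12 to 13 and once more at postnatal day 13 to 14, and the controls are hemispheres of mice treated in this way rather than of untreated mice. Neurons labelled with m-Citrin were picked by hand at postnatal day 14 from hemispheres labelled deprived (3 arrays) or non-deprived (3 arrays), and between 0.3 and 1 ng of total RNA went through 2 rounds of amplification. The labels give neither the mouse strain nor the transgene that drives m-Citrin, and separate animals are not named as the source of the samples in a group. The letter after the sample number is l in every non-deprived and r in every deprived sample, so that if it marks the side of the brain, side and deprivation cannot be told apart.

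The endoplasmic reticulum (ER) folds secreted and membrane proteins, among them the channels and receptors of neurons. When unfolded proteins gather there, the sensors IRE1 (Ern1), PERK (Eif2ak3) and ATF6 start the unfolded protein response, which raises chaperones, speeds the disposal of misfolded proteins and lowers protein synthesis. PERK is also one of the kinases that phosphorylate the translation factor eIF2, a step shared by many stresses, which favours translation of the transcription factor ATF4. Hspa5 encodes BiP, the HSP70 chaperone of the ER lumen, which also holds the sensors inactive. Herpud1 encodes HERP, an ER membrane protein of the machinery that moves misfolded proteins out for degradation. Sesn2 encodes Sestrin 2, a leucine-binding inhibitor of mTORC1 signalling whose gene is induced through ATF4, NRF2 and p53.

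The promoters are shown because the control elements that define these branches can be read in them. Each line gives the 300 bases from 250 before to 50 after the annotated start of the gene (RefSeq, GRCm38.p6), in lower case, with the fixed bases of every motif match in capitals. The windows are chr2:34771840-34772139 on the plus strand for Hspa5, chr8:94386179-94386478 on the plus strand for Herpud1 and chr4:132510407-132510706 on the minus strand for Sesn2. 5 motifs were searched on both strands, and they were chosen as known elements of these pathways with the sequences in view. They were the ER stress element ERSE (CCAAT and CCACG with 9 bases between them), ERSE-II (ATTGG and CCACG with 1 base between them), the core of the unfolded protein response element UPRE (TGACGTG), the C/EBP-ATF response element CARE that ATF4 binds (TGATGNAA), and the CCAAT box (CCAAT), which binds NF-Y and also lies inside ERSE and, on the other strand, inside ERSE-II.
Hspa5: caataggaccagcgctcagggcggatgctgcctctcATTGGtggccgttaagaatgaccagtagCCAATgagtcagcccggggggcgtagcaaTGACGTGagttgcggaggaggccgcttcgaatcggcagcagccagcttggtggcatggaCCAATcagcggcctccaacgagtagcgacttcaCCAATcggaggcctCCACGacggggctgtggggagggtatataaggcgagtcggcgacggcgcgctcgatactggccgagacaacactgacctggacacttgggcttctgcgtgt
Herpud1: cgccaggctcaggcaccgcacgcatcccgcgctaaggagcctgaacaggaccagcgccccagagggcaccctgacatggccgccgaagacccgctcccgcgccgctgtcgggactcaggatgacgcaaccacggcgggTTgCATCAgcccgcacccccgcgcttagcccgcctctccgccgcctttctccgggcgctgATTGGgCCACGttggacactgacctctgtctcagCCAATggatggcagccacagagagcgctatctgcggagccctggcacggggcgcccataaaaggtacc
Sesn2: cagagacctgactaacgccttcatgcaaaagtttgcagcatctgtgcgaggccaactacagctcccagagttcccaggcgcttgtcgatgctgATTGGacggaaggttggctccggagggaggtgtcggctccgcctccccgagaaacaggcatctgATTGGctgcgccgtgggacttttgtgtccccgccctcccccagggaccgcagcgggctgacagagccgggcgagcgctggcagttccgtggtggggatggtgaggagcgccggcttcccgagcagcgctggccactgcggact

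The 3 windows differ in the elements they hold. In Hspa5, an ERSE lies at positions -65 to -47, counted from the annotated start as 0, and the UPRE core at -157 to -151. In Herpud1, an ERSE-II lies at -52 to -42 and a CARE, on the minus strand, at -112 to -105. In Sesn2, the matches were CCAAT boxes on the minus strand, at -157 to -153 and -93 to -89. That no ERSE or CARE was found in the Sesn2 window says only that these letters are not in these 300 bases. Among the 11893 tested genes with a promoter window, 16 (0.135%) hold an ERSE, 8 (0.0673%) an ERSE-II, 339 (2.85%) a UPRE core, 421 (3.54%) a CARE and 5042 (42.4%) a CCAAT box. Over all 32851 windows the shares are 0.119%, 0.0365%, 2.01%, 3.97% and 37.4%.

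**Figure D1:**
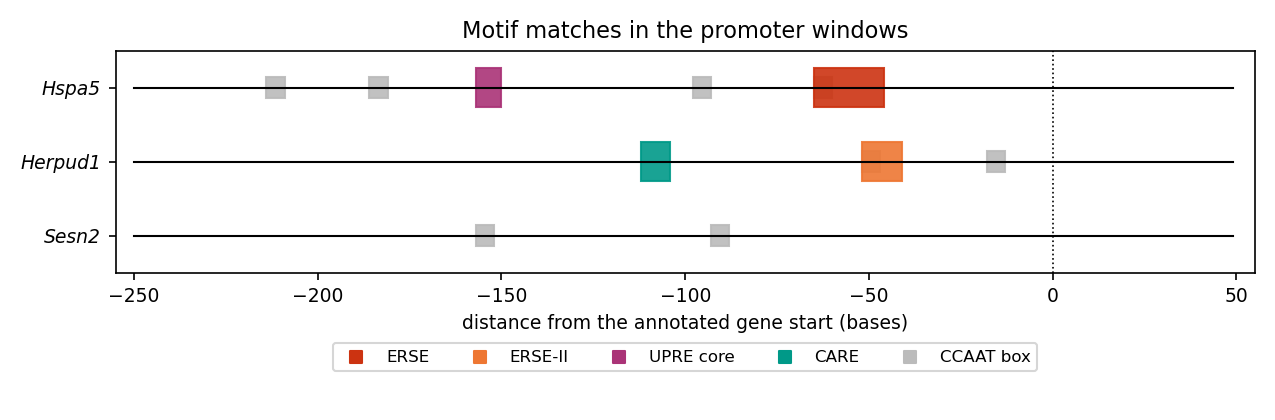
Motif matches in the promoter windows of Hspa5, Herpud1 and Sesn2. The x axis is the distance from the annotated gene start in bases, each line is one promoter window, and the coloured boxes mark the matches by motif; the ERSE of Hspa5 (-65 to -47) and the ERSE-II of Herpud1 (-52 to -42) lie at about the same distance from the start.

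The arrays were not alike across all genes. Non-deprived arrays 2 and 3 had upper quartiles of 6.43 and 6.55 over the named genes, against 7.01 to 7.15 on the other 4 arrays, so the differences of the 3 members and the list medians that moved are also given without them. Among markers of the labelled cell type, the vesicular glutamate transporter Slc17a7 was at 8.92 to 10.34 and the layer 4 transcription factor Rorb at 6.83 to 8.57 over the 6 arrays. Camk2a was at 8.83 to 9.80 and Nrgn at 9.39 to 10.32. Tbr1 ran from 6.44 to 9.08, Slc17a6 from 4.46 to 7.69 and Neurod6 from 4.42 to 8.245. Slc17a6 and Neurod6 were lowest on non-deprived array 2. The 6 astrocyte markers lay between 4.26 and 5.94 on the non-deprived arrays and between 4.39 and 6.67 on the deprived ones, in values with no known floor, and the highest were on deprived array 1 (Aldh1l1 at 6.67, Aldoc at 6.46). The interneuron peptide Sst, however, was at 10.08 to 11.59, while Vip was at 3.13 to 3.58 and the other interneuron markers lay between 3.76 and 9.13.

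Hspa5 was higher in every deprived array than in any non-deprived array. Its log2 expression value was 10.38, 10.20 and 9.67 on non-deprived arrays 1, 2 and 3 and 10.72, 10.52 and 10.59 on deprived arrays 1, 2 and 3. The deprived arrays lay close together, while the non-deprived group was spread by its low array 3, and the highest non-deprived and lowest deprived values were 0.137 apart. The means were 10.61 ± 0.10 for deprived and 10.09 ± 0.37 for non-deprived arrays (SD, n = 3 each), which gives a log2 difference of 0.52 ± 0.24 (SE), or 1.44-fold. Without non-deprived array 3 the difference was 0.32, and with non-deprived arrays 2 and 3 both left out it was 0.23.

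Herpud1 also had groups that did not overlap. It was at 6.27, 5.75 and 6.64 on non-deprived arrays 1, 2 and 3 and at 6.92, 6.77 and 7.11 on deprived arrays 1, 2 and 3. Here the lowest value was on non-deprived array 2, and non-deprived array 3, which was lowest for Hspa5, was the highest of its group, 0.136 below the lowest deprived array. The means were 6.94 ± 0.17 and 6.22 ± 0.45 (SD, n = 3 each), which gives a log2 difference of 0.72 ± 0.33 (SE), or 1.64-fold. It was 0.48 without non-deprived array 2, 0.66 when array 3 of that group was left out as well, and 0.39 after quantile normalization.

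For Sesn2 the groups overlapped. Its values were 5.51, 5.01 and 4.89 on non-deprived arrays 1, 2 and 3, and 5.16, 6.56 and 6.26 on deprived arrays 1, 2 and 3. Deprived array 1 lay within the non-deprived range, and deprived arrays 2 and 3 lay above all of it. Sesn2 had a low signal, in values without a detection measure. Relative to the median of the named genes on each array, it was at -0.165, -0.36 and -0.50 on non-deprived arrays 1, 2 and 3. On deprived arrays 1, 2 and 3 it was at -0.42, 0.95 and 0.53 on that scale. The means were 5.99 ± 0.74 and 5.14 ± 0.33 (SD, n = 3 each), which gives a log2 difference of 0.85 ± 0.40 (SE), or 1.81-fold. The difference was 1.27 without deprived array 1, 0.57 without deprived array 2 and 0.48 with non-deprived arrays 2 and 3 both left out. Deprived array 1 also had the highest summed level of the 6 astrocyte markers (8.64 on the log2 scale, against 7.46 and 7.76 on deprived arrays 2 and 3 and 7.65 to 7.80 on the non-deprived arrays). Its summed interneuron level was 10.86, against 11.90 and 11.75 on deprived arrays 2 and 3. Its summed excitatory and layer 4 level was 11.74, against 11.97 and 12.08. Its microglial and endothelial sums were also the lowest of the deprived arrays. The part of these in the Sesn2 value was not tested.

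**Figure D2:**
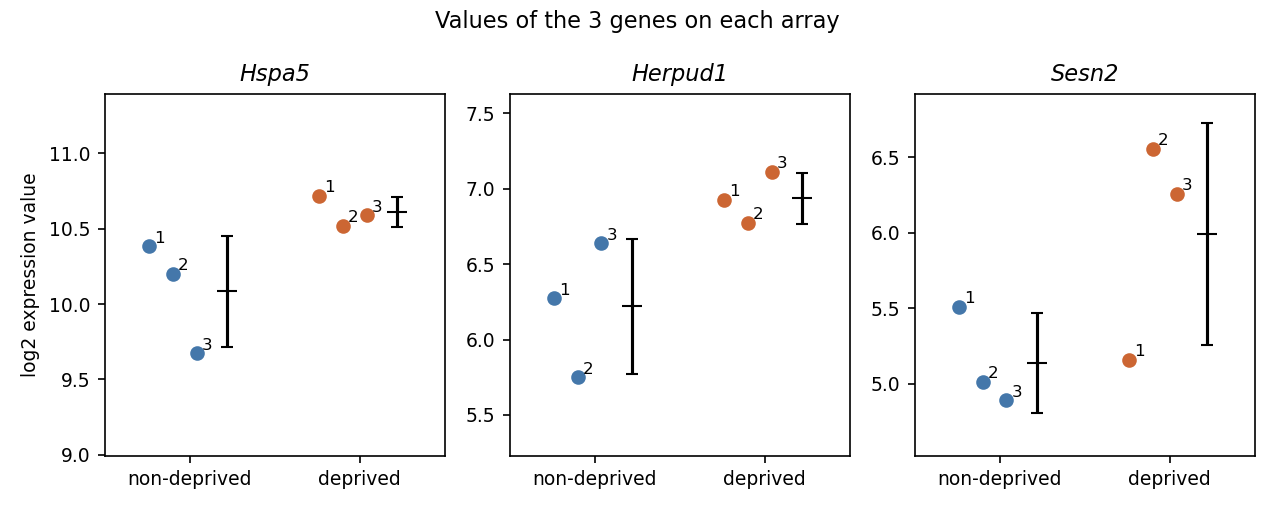
Log2 expression value (y axis) of Hspa5, Herpud1 and Sesn2 on each array, by group (x axis). Points are arrays, numbered as in the labels, bars show the mean ± SD of 3 arrays, and each panel spans the same height on the log2 scale; deprived array 1 stands with the non-deprived arrays for Sesn2 (5.16) and apart from them for Hspa5 (10.72).

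Across all genes, groups that did not overlap with the deprived arrays higher made up 6.3% of the 14859 genes (936), and those with the deprived arrays lower 4.03% (599). Since Hspa5 and Herpud1 were chosen from this contrast, nothing is read from their place among them. Differences larger than that of Hspa5 were found in 19.1% of all genes, larger than that of Herpud1 in 13.1% and larger than that of Sesn2 in 9.74%. The spread within groups was 0.27 for Hspa5, 0.34 for Herpud1 and 0.57 for Sesn2 (pooled SD, log2), against a median of 0.37 over all genes. In limma, 0 of the 14859 genes (0%) passed an adjusted p of 0.05. At an unadjusted p under 0.05 there were 775 (5.22%), 566 of them higher (3.81%) and 209 lower (1.41%) on the deprived arrays.

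The scaling of the arrays carries into these values. The median difference of all genes was 0.05, and it was -0.06 after quantile normalization and -0.11 after median centring of each array. With genes below a mean of 4.57 dropped, it was 0.11 over the remaining 11144. Relative to the median of all genes, the differences were 0.47 for Hspa5, 0.67 for Herpud1 and 0.80 for Sesn2 as deposited. After quantile normalization they were 0.52, 0.45 and 0.75 on the same relative scale. Relative to the 11144 genes of higher level they were 0.41, 0.60 and 0.74. Over the 9 alternatives that can change the values (other scalings and arrays left out), the differences ranged from 0.23 to 0.67 for Hspa5, from 0.39 to 0.92 for Herpud1 and from 0.48 to 1.27 for Sesn2. Since the genes were chosen for this difference, the shared sign is no sign of stability. Markers of excitatory neurons and layer 4 moved with the groups too: 7 of 7 measured were higher on the deprived arrays, and their summed level was 11.74 to 12.08 there against 11.30 to 11.52. The 6 endothelial and pericyte markers were higher in 6 of 6 (summed level 6.91 to 7.005 against 6.82 to 6.88), and the 6 interneuron markers in 4 of 6, with summed levels that overlapped (10.86 to 11.90 against 10.78 to 11.78). Of the astrocyte markers 5 of 6 were higher, of the oligodendrocyte lineage markers 2 of 6 (8.10 to 8.34 against 8.15 to 8.34) and of the microglial markers 1 of 6 (7.71 to 8.07 against 7.73 to 8.09). In such pooled cells, a different share of a cell type and a different amount of RNA per cell cannot be told apart, and the part of the markers in the members' differences was not tested.

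**Figure D3:**
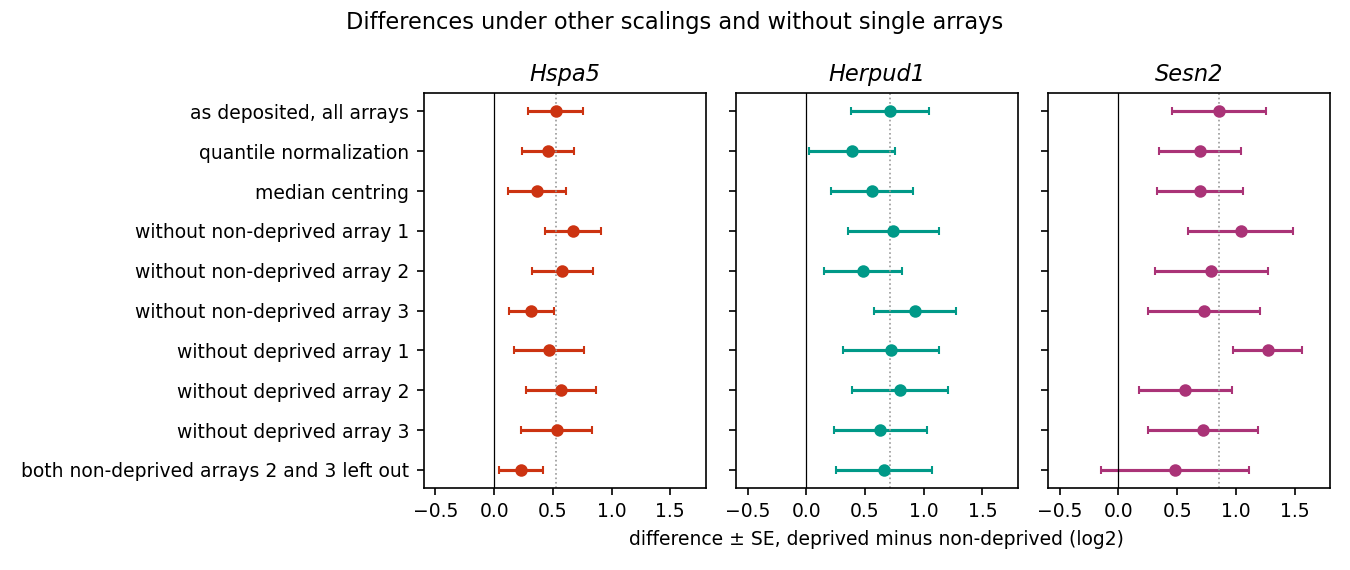
Difference between deprived and non-deprived arrays (x axis, log2, bars are ± SE) for Hspa5, Herpud1 and Sesn2, as deposited, under 2 other scalings and without single arrays (y axis). The dotted line is the value as deposited; for Hspa5 the smallest value (0.23) came with non-deprived arrays 2 and 3 left out and for Sesn2 the largest (1.27) without deprived array 1.

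The ER chaperones and folding enzymes are the genes around Hspa5. Of 23 listed, 21 were measured, and 18 were higher and 3 lower on the deprived arrays, with 0 past the threshold in either direction. Their median log2 difference was 0.38, against 0.05 for all genes. That background depended on level. With genes below a mean of 4.57 dropped, the median of the rest was 0.11, and 6933 of 11144 were higher. All 21 chaperone list genes remained, and their median lay 0.27 above that background. The upper quartile of the named genes was 7.01 to 7.15 on the deprived and 6.43 to 7.08 on the non-deprived arrays. Genes matched to this list in level were not compared. After quantile normalization 15 members were higher, with a median of 0.20, beside 6450 of all 14859 genes and a median of -0.06. After median centring 15 were higher, with a median of 0.22, beside 5711 of all genes and -0.11. The list median was 0.11 without non-deprived array 3 and 0.12 without that array and array 2 of the group. Hsp90b1, the ER HSP90 known as GRP94, differed by 0.03 (95% interval -0.35 to 0.42; limma adjusted p = 0.982), from 11.12 ± 0.04 to 11.15 ± 0.25 (SD, n = 3 each). The lectin chaperone Canx differed by 0.02 (-0.40 to 0.45), and its soluble relative Calr by 0.46 (-0.44 to 1.36).

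Calr followed Hspa5 over the non-deprived arrays, at 10.33, 9.78 and 8.93 in arrays 1, 2 and 3, with 10.10, 10.24 and 10.07 on the deprived arrays. Hyou1, the ER member of the HSP110 family that serves BiP as a nucleotide exchange factor, was likewise low on non-deprived array 3 (5.41, with 7.76 and 7.33 on its group mates and 6.97 to 7.30 among deprived arrays), and differed by 0.32 (-1.19 to 1.84). Both genes had their lowest value on the same array as Hspa5, an array with a low upper quartile over the named genes (6.55). Of the others named by role in this list, Canx, Pdia3 and Dnajb9 were also lowest there. Hsp90b1 and P4hb were highest of the non-deprived arrays there. Among the non-deprived arrays, Pdia4 and Pdia6 were lowest on array 2 and Manf on array 1. Sil1, the other exchange factor of BiP, was at 6.002 to 6.102 on the non-deprived and 6.52 to 7.08 on the deprived ones, a difference of 0.66 (-0.00088 to 1.33; limma adjusted p = 0.856). Sil1 lies outside the rule for named genes and was chosen after its values were seen, as one of the 2 genes of this list, with Hspa5, whose groups did not overlap.

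The protein disulfide isomerases form and rearrange disulfide bonds in the ER. Pdia4 was at 8.93, 4.57 and 6.26 on the non-deprived arrays and 8.22, 8.45 and 8.20 on the deprived arrays. Pdia6 was at 9.48, 5.64 and 8.90 on the non-deprived arrays, and 9.37, 9.98 and 9.47 on the deprived arrays. Both were lowest on non-deprived array 2, and non-deprived array 1 lay above the deprived range for Pdia4 and within it for Pdia6. Their differences of 1.70 (-0.77 to 4.17) and 1.601 (-0.74 to 3.94) were within that spread. Pdia3 differed by 0.34 (-0.34 to 1.02) and P4hb, the founding member of the family, by -0.27 (-1.23 to 0.69). The J-domain protein Dnajb9, a partner of BiP, differed by 0.48 (-0.73 to 1.69), and the secreted ER stress factor Manf by -0.06 (-1.04 to 0.93).

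**Figure D4:**
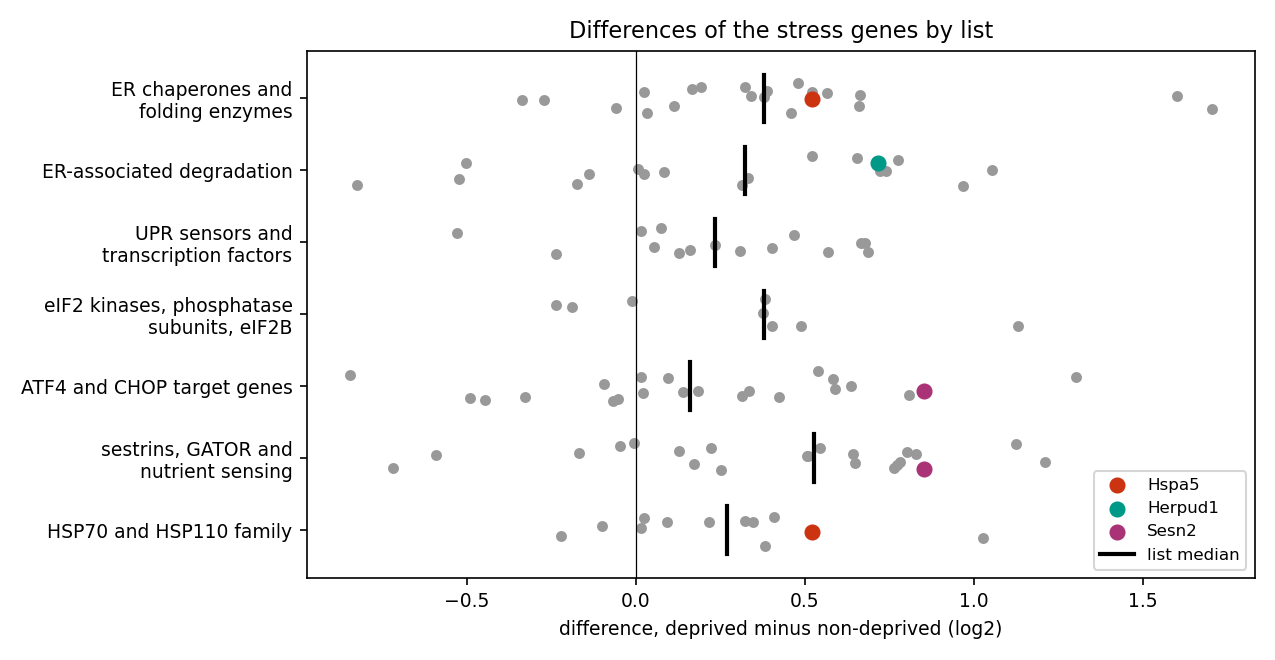
Log2 difference between deprived and non-deprived arrays (x axis) of each measured gene, by stress list (y axis). Grey points are genes, coloured points Hspa5, Herpud1 and Sesn2, and black bars the list medians, which lie between 0.16 and 0.53; a gene on 2 lists appears in both.

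ERSE sequences of 6 listed genes are shown because the same element lies in the Hspa5 promoter. Of the 18 chaperone list genes with a promoter window, 7 (38.9%) hold an ERSE, against 0.135% of all tested genes; the element was first described in such genes, so the share is background and not a result of these data. The lines show 5 of these 7 genes and Syvn1 of the degradation list; those of Creld2, Ero1b and Derl3 and a second, minus-strand element of Hsp90b1 are left out. Each line gives the element in its own 5′ to 3′ direction with the fixed bases in capitals (GRCm38.p6).
Hspa5, chr2:34772025-34772043, plus strand of the gene: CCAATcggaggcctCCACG
Hsp90b1, chr10:86705638-86705656, plus strand of the gene: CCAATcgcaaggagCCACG
Calr, chr8:84847075-84847093, minus strand of the gene: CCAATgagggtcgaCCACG
Canx, chr11:50325800-50325818, plus strand of the gene: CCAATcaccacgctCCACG
Pdia6, chr12:17266491-17266509, plus strand of the gene: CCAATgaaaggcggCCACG
Syvn1, chr19:6046532-6046550, plus strand of the gene: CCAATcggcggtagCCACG
Across all stress lists, 9 measured genes hold an ERSE (Hspa5, Hsp90b1, Calr, Canx, Pdia6, Creld2, Ero1b, Syvn1 and Derl3). All 9 differences were above 0, as were 56.3% of those of all genes. With genes below a mean of 4.57 dropped, 6933 of the remaining 11144 were above 0. After median centring 6 of 9 were above 0, beside 5711 of all 14859 genes. After quantile normalization 7 of 9 were, beside 6450 of all genes. As deposited, the 9 differences ran from 0.02 for Canx to 1.601 for Pdia6. Without Hspa5, which was chosen for its difference, the median of the other 8 was 0.33, and 0.12 without non-deprived arrays 2 and 3.

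Herpud1 belongs to the genes of ER-associated degradation, which draw misfolded proteins out of the ER to the proteasome. Of 24 listed, 18 were measured, 13 higher and 5 lower on the deprived arrays, with 0 past the threshold in either direction. Their median was 0.32, and -0.03 after quantile normalization (8 of 18 higher). The median of all genes was then -0.06, with 6450 of 14859 higher (8369 as deposited). The list median was 0.18 without non-deprived array 2 and 0.11 when array 3 of that group was left out as well. The ubiquitin ligase Syvn1, also called HRD1, to whose complex HERP belongs, was at 7.16, 5.32 and 6.15 on the non-deprived arrays and 8.22, 6.30 and 7.01 on the deprived ones, a difference of 0.97 (-0.60 to 2.54). Its adaptor Sel1l was at 8.87, 5.60 and 6.92 against 8.04, 8.65 and 7.86, a difference of 1.06 (-0.90 to 3.01). Like Herpud1, both were lowest on non-deprived array 2, the array with the lowest upper quartile over the named genes (6.43). The rest of the list was mixed on that array, in genes looked up after their values were seen. Derl1, Derl2, Edem1, Os9, Selenos, Nploc4 and Ubxn4 were also lowest of the non-deprived arrays there. Derl3, Edem2, Erlec1, Faf2, Ubqln1 and Ubqln2 were highest of the non-deprived arrays there.

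The other degradation genes named by role went either way. The channel-like membrane proteins Derl1 and Derl2 differed by -0.82 (-2.33 to 0.68) and 0.33 (-0.48 to 1.15). Edem1, which directs misfolded glycoproteins to degradation, differed by -0.50 (-1.70 to 0.69). Deprived arrays 1 and 2 held Derl1 at 5.89 and 5.92, below the 6.35 to 7.77 of the non-deprived arrays, while deprived array 3 was at 7.57. Herpud2, the close relative of Herpud1, was not analysed here.

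Upstream of Hspa5 and Herpud1 stand the sensors and transcription factors of the unfolded protein response. Of 17 listed, 15 were measured, 13 higher and 2 lower, with 0 past the threshold in either direction (median 0.24, and -0.0068 with 7 of 15 higher after quantile normalization). After that normalization the median of all genes was -0.06, with 6450 of 14859 higher (8369 as deposited). Ern1, which encodes IRE1, was at 4.78 to 5.01 on the non-deprived and 4.82 to 5.09 on the deprived arrays. Eif2ak3, which encodes PERK, differed by -0.24 (-0.75 to 0.27). Xbp1, whose mRNA is spliced by IRE1, differed by 0.24 (-0.71 to 1.18), in values over the whole gene that do not separate the spliced form. Atf4 was at 7.08, 7.70 and 6.99 against 8.04, 7.60 and 7.54, a difference of 0.47 (-0.41 to 1.34). Ddit3, the ATF4-induced factor CHOP, ran from 4.98 to 8.18 within the non-deprived arrays alone and differed by 0.13 (-1.94 to 2.19). The ATF6 gene itself was not analysed here.

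Of the 12 listed eIF2 kinases, phosphatase subunits and eIF2B subunits, 8 were measured, 5 higher and 3 lower, with 0 past the threshold (median 0.38, but 0.04 without non-deprived array 3 and -0.12 without that array and array 2 of the group). Of all 14859 genes, 8369 were higher. Ppp1r15a, the stress-induced phosphatase subunit GADD34, was at 6.34, 5.07 and 5.46 on the non-deprived arrays, against 5.93, 6.22 and 6.18, and differed by 0.49 (-0.37 to 1.34).

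Sesn2 stands among the targets of ATF4 and CHOP, which together ran from a difference of -0.84 for Cebpg to 1.30 for Wars. Of 28 listed, 22 were measured, 15 higher and 7 lower (11 of 22 higher after median centring or quantile normalization), with 0 past the threshold in either direction. Of all 14859 genes, 8369 were higher as deposited, 5711 after centring and 6450 after quantile normalization. The list median of 0.16 was 0.0023 after median centring and 0.02 without non-deprived arrays 2 and 3. Relative to the median of all genes, the list median was 0.11 as deposited, and centring leaves this value unchanged by construction. On that relative scale it was 0.08 after quantile normalization, 0.07 with genes below a mean of 4.57 dropped and 0.01 without those arrays. Trib3, a pseudokinase, was at 5.16 to 5.40 on the non-deprived and 5.24 to 5.41 on the deprived arrays. Ddit4, which like Sesn2 restrains mTORC1, differed by 0.02 (-0.61 to 0.64). Atf3, a stress-induced repressor, differed by 0.18 (-0.21 to 0.58), and the glutathione-degrading enzyme Chac1 by -0.33 (-1.13 to 0.47). Asns, asparagine synthetase, had groups that did not overlap, at 8.62, 8.79 and 8.22 on the non-deprived arrays and 8.84, 9.45 and 9.09 on the deprived ones, a difference of 0.59 (-0.20 to 1.37; limma adjusted p = 0.856).

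CARE sequences are shown for Herpud1 and 4 of these targets, because Herpud1 carries one beside its ERSE-II while the Sesn2 window has none. Of the 20 listed targets with a promoter window, 9 (45%) hold a CARE, against 3.54% of all tested genes, again as background, since the element was described in such genes.
Herpud1, chr8:94386317-94386324, minus strand of the gene: TGATGcAA
Chac1, chr2:119351049-119351056, minus strand of the gene: TGATGcAA
Atf3, chr1:191183436-191183443, minus strand of the gene: TGATGcAA
Asns, chr6:7693225-7693232, plus strand of the gene: TGATGaAA
Trib3, chr2:152344039-152344046, minus strand of the gene: TGATGtAA
Over all stress lists, 12 measured genes hold a CARE, 7 higher and 5 lower on the deprived arrays. After either median centring or quantile normalization, 5 were higher and 7 lower. Of all 14859 genes, 5711 were higher after centring and 6450 after quantile normalization. Without Herpud1, which was chosen for its difference, 6 of 11 were higher, with a median of 0.02, beside 0.05 for all genes. With non-deprived arrays 2 and 3 left out, 8 of these 11 were higher, with a median of 0.14, beside 0.01 for all genes. As deposited, the range was -0.49 for Nupr1 to 0.81 for Gars.

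Sesn2 has 2 relatives, Sesn1 and Sesn3, and neither passed the threshold. Sesn1, induced by p53 and FOXO factors, was at 7.67, 6.16 and 7.22 on the non-deprived arrays and 7.21, 8.85 and 8.38 on the deprived ones, a difference of 1.13 (-0.30 to 2.55; limma adjusted p = 0.856). As for Sesn2, deprived array 1 lay within the non-deprived range and deprived arrays 2 and 3 above it. Sesn3 was at 7.93, 9.71 and 8.65 against 8.11, 8.10 and 7.94, a difference of -0.72 (-1.91 to 0.47). The list of sestrins, GATOR and nutrient-sensing genes joined genes of the amino acid route to mTORC1 with others, among them Tsc1, Tsc2, Ulk1, Sqstm1, Keap1 and Nfe2l2. It had 17 of 22 measured members higher and 5 lower on the deprived arrays, beside 8369 of all 14859 genes higher. In either direction, 0 of its members passed the threshold. Its median of 0.53 was 0.27 after quantile normalization, 0.37 after median centring, 0.30 without deprived array 2 and 0.24 after omission of non-deprived arrays 2 and 3. Relative to the median of all genes it was 0.48 as deposited (unchanged by centring, by construction) and 0.32 after quantile normalization. With genes below a mean of 4.57 dropped, that relative value was 0.43.

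Hspa5 and Hyou1 are the ER lumen members of the HSP70 and HSP110 families, whose other members work mostly in the cytosol or mitochondria. Of 15 listed HSP70 and HSP110 genes, 12 were measured, 10 higher and 2 lower (7 and 5 after quantile normalization, where the median was 0.01), with 0 past the threshold. Of all 14859 genes, 8369 were higher as deposited, 6450 after quantile normalization and 5711 after median centring. The list median was 0.27, and -0.12 without non-deprived arrays 2 and 3. Relative to the median of all genes it was 0.22 as deposited, 0.07 after quantile normalization and -0.13 without those arrays. With genes below a mean of 4.57 dropped, that relative value was 0.16. Without Hspa5, Hyou1 and the microsomal Hspa13, 7 of 9 were higher (median 0.22), and 5 of 9 after median centring. The mitochondrial member Hspa9 was at 9.72 to 10.09 on the non-deprived and 9.76 to 10.17 on the deprived ones, a difference of 0.09 (-0.46 to 0.65). The heat-inducible Hspa1a was at 4.92, 4.67 and 4.32 against 4.152, 4.995 and 5.915, a difference of 0.38 (-0.67 to 1.43). Taking the 7 lists as one, 114 of 138 genes were measured, and in 10 the groups did not overlap with the deprived arrays higher, 8.77% beside 6.3% of all genes. In 0 they did not overlap with the deprived arrays lower, beside 4.03%. These 10 include Hspa5 and Herpud1, which were chosen for their difference.

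**Figure D5:**
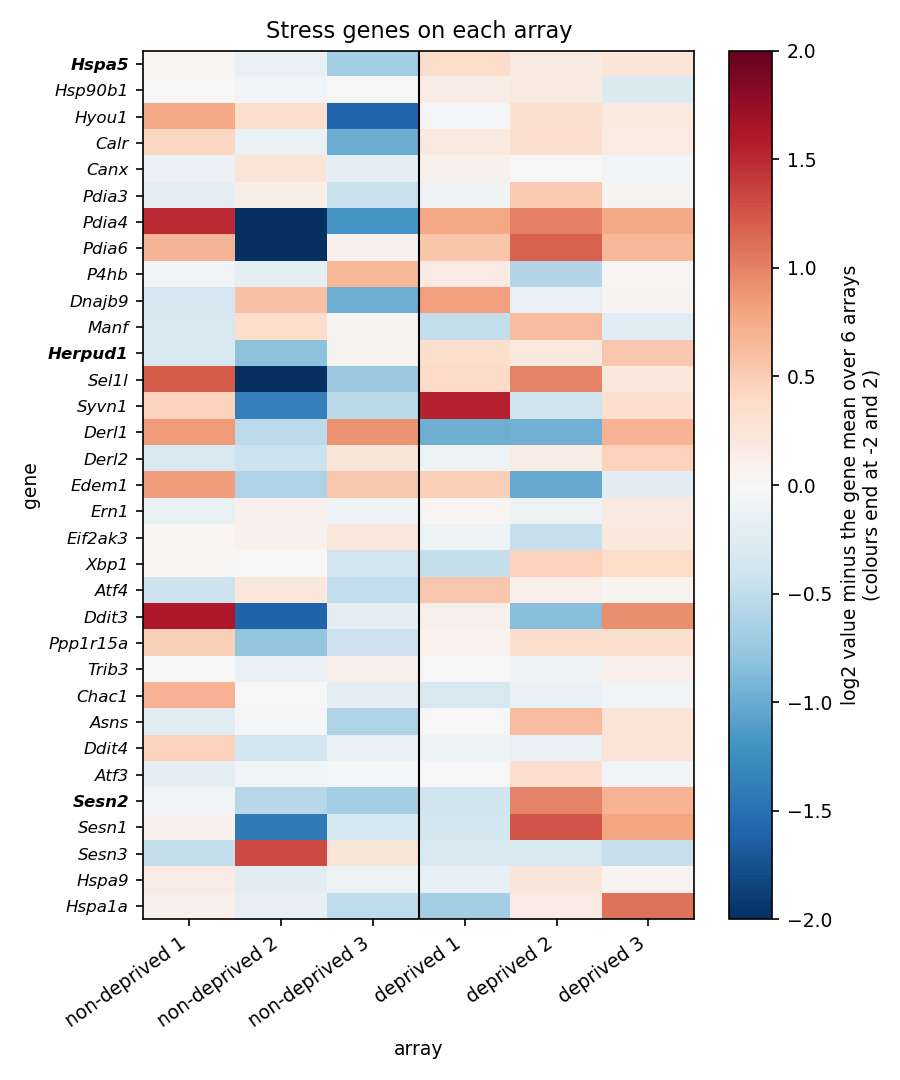
Stress genes named by role (y axis) on the 6 arrays (x axis). Colours give the log2 value minus the mean of the gene over 6 arrays and end at -2 and 2; Hspa5, Herpud1 and Sesn2 are in bold, and the cells below -2 are Pdia4, Pdia6 and Sel1l on non-deprived array 2.

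The genes with the pattern most like each member were other than the listed stress genes. Likeness was the Pearson r over the 6 arrays after median centring, among 7316 or 7317 genes at or above the median level, so the highest values are high by selection, and the arrays share the split into groups. For Hspa5 the nearest were Slc37a4, the glucose-6-phosphate transporter of the ER (r = 0.986), Sephs2, a selenophosphate synthetase (0.973), Dot1l (0.969), Strap (0.965) and Ndufaf2 (0.964). For Herpud1 they were Cfap298 (0.992), the respiratory chain assembly factor Bcs1l (0.985), Cdkl2 (0.957), the mitochondrial ribosomal protein Mrpl3 (0.956) and Vrk1 (0.950). For Sesn2 they were Sympk, a scaffold of mRNA 3′ end processing (0.998), Ctnnbip1 (0.987), Dph7 (0.984), the nuclear receptor Nr4a2 (0.977) and Zer1 (0.974). Nr4a2 had means of 6.72 in the deprived and 5.08 on the non-deprived arrays, a difference of 1.64. The lists of the 3 members had no gene in common.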

How the data were processed

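Messenger RNA was measured on 6 Affymetrix arrays. The authors deposited 1 log2 value per transcript cluster and array; their range (0.584 to 13.6) showed the log2 scale. How the authors corrected background, normalized and summarised is not given in the sources used here, beyond the build mm9 in the submitters' processing notes. Of 23331 clusters, 14995 had 1 gene symbol, 1019 several and 7317 none; the cluster with the highest mean represented a gene (14859 genes). No detection measure was used and the number of arrays limits the precision. Groups were compared in limma 3.58.1 (R 4.3.3; lmFit, eBayes with a variance trend, group as sole term, two-sided, Benjamini-Hochberg over all genes at 0.05), tested first on simulated data. Intervals are 95% intervals of that fit. Since separate animals are not named, p-values reflect only the spread of these samples, which may be technical.

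The members, gene lists and motifs were chosen with earlier results of these data known. Genes were named by role from a fixed list, plus the 5 genes most like each member; others are marked in the text. Alternatives were a replicate block, quantile normalization, median centring, a filter at the 25th percentile of mean level, the mean over clusters, no variance trend, and arrays left out. Motifs were matched exactly in RefSeq promoter windows (GRCm38.p6), found for 100 of 114 measured stress genes.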

Additional observations from a re-analysis of the deposited data

How the results depend on the processing

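Of the 13 alternatives, 4 (the replicate block, the percentile filter, the mean over clusters and no variance trend) leave the differences of the members as they are by construction; all 3 genes lay above the 25th percentile of mean level (4.57). The value for Hspa5 moved by more than the spread between replicates with non-deprived arrays 2 and 3 both left out, to 0.226 from 0.523. Leaving out 1 array at a time gave 0.317 to 0.671 for Hspa5, 0.481 to 0.924 for Herpud1 and 0.571 to 1.27 for Sesn2. The count of genes past the threshold in limma was 0 under every alternative, with 603 to 1850 genes at an unadjusted p under 0.05, the latter without non-deprived array 1. Among the 7 stress lists, 2 had medians below 0 after quantile normalization (ER-associated degradation and the sensors and transcription factors). The median of all genes was then -0.056, and these 2 medians lay 0.0255 and 0.049 above it. Without non-deprived arrays 2 and 3, 2 lists had medians below 0 (the eIF2 list and the HSP70 family). Relative to the median of all genes these were -0.14 and -0.13, and the cause was not tested. The labels number the samples 1 to 3 in each group, but same-numbered arrays did not deviate together (r = -0.051, -0.018 and -0.003 across genes), and 0 of 6 arrays correlated best with their own number. With the replicate number as a block the differences were unchanged by construction (0.523, 0.716 and 0.854), their standard errors were 0.239, 0.338 and 0.449, and 0 genes passed, with 745 at an unadjusted p under 0.05 against 775.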
